A study of Mus musculus with 4 samples.

Results

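The genes described here are the noncoding RNA genes that lay nearest to a binding site of phosphorylated STAT3 in hematopoietic stem and progenitor cells of leukemic and healthy mice. STAT3 is a transcription factor that enters the nucleus and binds DNA once it carries a phosphate on a tyrosine near its end (pSTAT3-Y705). The peak table names for every peak the nearest transcription start site (TSS), and a gene was taken when its RefSeq accession there began with NR_, the RefSeq prefix for noncoding transcripts. Only chromosomes 1 to 19 and X were used, and Rn45s, Mir101c, Pisd-ps1, Pisd-ps3 and all names starting with Zfp, Vmn or Hist were set aside. This gave 120 genes of the 958 named in the table, and 3 of the 123 names with an NR_ accession fell to the exclusions.

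LSK cells (lineage negative, Sca1 positive and cKit positive, the bone marrow fraction that holds stem and early progenitor cells) were sorted from C57BL/6 mice, and their chromatin was precipitated with an antibody against pSTAT3-Y705. The CML-TKI sample came from imatinib-treated mice with chronic myeloid leukemia (CML), the CML sample from untreated leukemic mice and the WT sample from healthy mice. Both leukemic groups carried the BCR-ABL oncogene together with SCL-tTA, a transactivator whose expression follows a stem cell enhancer of the Scl gene. The labels give the imatinib dose once as 200 mg/kg for 4 weeks and once as 400 mg/kg for 30 days, on alternate days in both. Each group had 1 library, so there was no replicate spread, no test between the groups and no way to tell a group from its library. The ages of the mice and whether cells were pooled are not given in the sources used here, and an IgG input sample was not analysed here. The table lists peak positions and gene names with no read count, score or enrichment over input, so depth is unknown. The study's text counts many more sites in each library than the table analysed here holds, and how the entries of this table were chosen is not given in the sources used here. A gene absent from a library below is therefore absent from this table, which does not show that the library had no peak there, and every count, pattern and overlap holds for the table only. It holds no expression values either, so the sorted cell type could not be checked against markers.

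Noncoding RNA genes fall into classes that work in different ways. MicroRNAs are short RNAs that pair through their seed, bases 2 to 8, with messenger RNAs and lower their output, while small nucleolar RNAs (snoRNAs) guide chemical modification of ribosomal RNA and are cut from the introns of host genes. Long noncoding RNAs include structural RNAs of nuclear bodies, such as Malat1 in nuclear speckles and Neat1 in paraspeckles, and many transcripts with no known function. STAT3 is known to activate some of these genes, and in human myeloma cells the MIR21 gene is an established target of interleukin-6 and STAT3.

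The label was checked against RefSeq. All 120 names were found in the RefSeq gene table of GRCm38.p6, 116 of them by accession, and 117 carried a noncoding gene type there. The 3 exceptions were C130030K03Rik, D930016D06Rik and Toporsos, which RefSeq now lists under the protein-coding genes Grik2, Thoc2l and Smim27. By kind, the set held 73 long noncoding genes (Rprl3, of RefSeq type RNase P RNA, was counted with them), 23 microRNAs, 17 pseudogenes, 2 snoRNAs, 2 snoRNA host genes, 1 gene named as antisense (Toporsos) and 2 noncoding transcripts of protein-coding genes. The antisense kind goes by name only, and 34 of the 73 long noncoding genes also overlap another gene on the opposite strand in the GRCm38 annotation.

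Some of the microRNAs described below are shown with the seed in capitals, from RefSeq on GRCm38.p6. The first 4 sequences belong to Mir762, Mir142 and Mir23a, named only in CML-TKI, and the last 2 to microRNAs named in all 3 libraries. The selection is not complete, as Mir7681, Mir6979, Mir21a and Mir145b also had CML-TKI peaks nearer than that of Mir23a.
mmu-miR-762: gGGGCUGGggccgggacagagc
mmu-miR-142a-5p: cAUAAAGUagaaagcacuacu
mmu-miR-142a-3p: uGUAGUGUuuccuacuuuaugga
mmu-miR-23a-3p: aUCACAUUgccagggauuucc
mmu-miR-21a-5p: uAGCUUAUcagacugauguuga
mmu-miR-3061-5p: cAGUGGGCcgugaaagguagcc
Of the 23 microRNA genes, 17 had a mature sequence in the RefSeq table. Among the 25 mature sequences compared, 0 seeds were shared by 2 or more of the genes, so the microRNAs compared did not form a family with common pairing.

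CML-TKI had the most noncoding genes and WT the fewest, in step with the number of genes of any kind that each library named. CML-TKI named 81 of the 120, CML named 63 and WT named 29. As a share of all genes in the library, noncoding genes made up 11.9% of 681 in CML-TKI (95% confidence interval 9.56 to 14.6), 12.8% of 493 in CML (9.96 to 16.1) and 11.1% of 262 in WT (7.54 to 15.5). The 3 intervals overlap. These intervals, like all others given here, are exact Clopper-Pearson intervals and cover counting error only, and since peaks of 1 locus are not independent they are narrower than the true uncertainty.

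The libraries in which a noncoding gene was named followed those of the whole table. CML-TKI named 67.5% of the noncoding genes, against 71.1% of all 958 genes. CML named 52.5% against 51.5%, and WT named 24.2% against 27.3%. Genes named only in CML-TKI numbered 42 (35.0%, against a background of 35.2%), and genes named only in CML numbered 39 (32.5%, against 28.8%). Another 10 were named in CML-TKI and CML (8.33%, against 8.66%), 15 in CML-TKI and WT (12.5%, against 13.3%) and 14 in all 3 libraries (11.7%, against 14%). None was named in WT alone, where the whole table had 1 such gene, and none in CML and WT without CML-TKI. These absences describe the deposited table, not what each library could detect. Each share was near the background, so the pattern over libraries was not particular to noncoding genes.

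**Figure D1:**
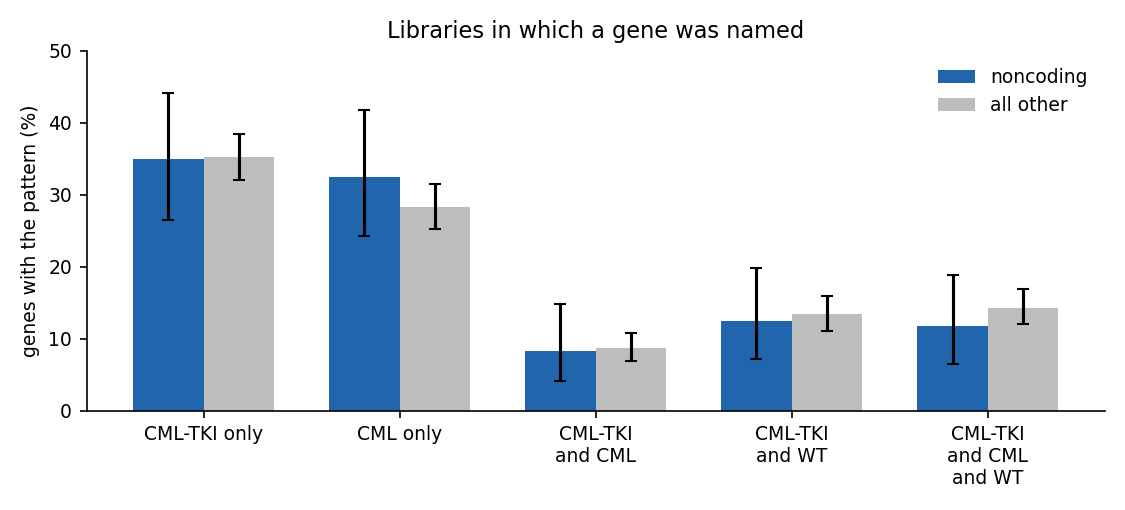
Share of genes (%, y axis) with each pattern of libraries (x axis), for the 120 noncoding genes (blue) and the 838 other genes (grey), with exact 95% intervals as bars. The intervals of the 2 gene sets overlap for all 5 patterns, with 35.0% and 35.2% for genes named only in CML-TKI.

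By kind, long noncoding genes led in every library, with CML-TKI naming 50, CML 36 and WT 16. CML-TKI named 14 microRNAs, CML 12 and WT 4. Pseudogenes numbered 14, 10 and 8 in the same order, which made up 17.3% of the noncoding genes of CML-TKI, 15.9% of those of CML and 27.6% of those of WT. Both snoRNAs were named in CML-TKI only, and both snoRNA host genes in CML only, patterns held by 35.2% and 28.8% of all genes.

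**Figure D2:**
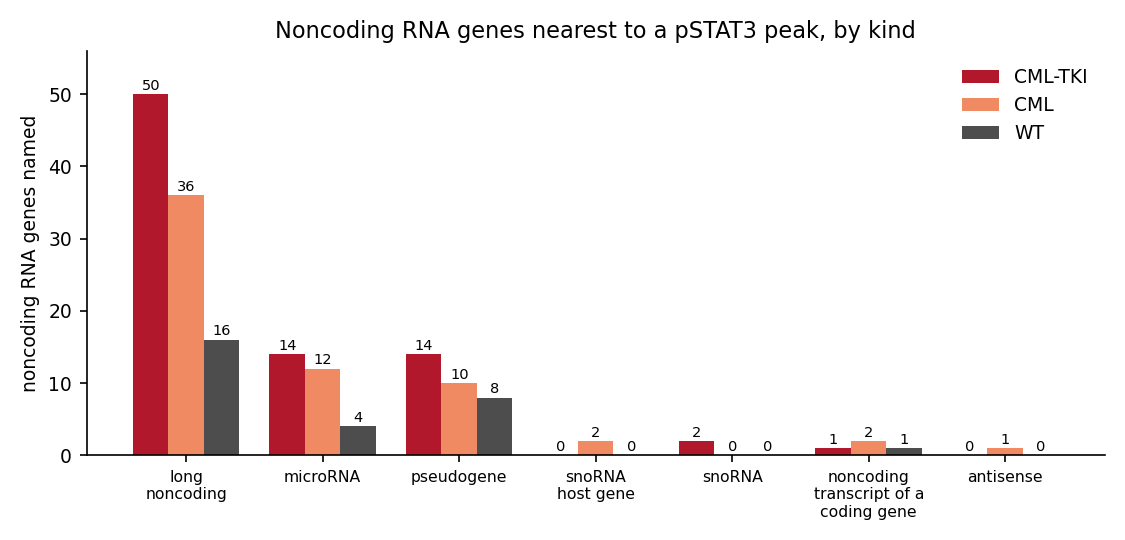
Number of noncoding RNA genes named (y axis) by kind (x axis) in CML-TKI, CML and WT, with 1 library each and the count above each bar. Long noncoding genes are the largest kind in all 3 libraries, at 50, 36 and 16 genes.

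The nearest peaks of noncoding genes lay farther from the start site than those of other genes. The nearest peak was within 1 kb of the TSS for 20 of the 120 noncoding genes (16.7%, 10.5 to 24.6), against 32.8% of the 838 other genes (29.6 to 36.1) and 30.8% of all genes. It was beyond 100 kb for 29 (24.2%, 16.8 to 32.8), against 12.9% of other genes (10.7 to 15.3) and 14.3% of all genes. Neither pair of intervals overlaps. The other genes include those on chromosome Y and names starting with Zfp, Vmn or Hist, which the rule kept out of the noncoding set. The comparison was not repeated without them. The distances are those to the start site nearest to the peak, as the table gives them. For a microRNA or snoRNA this is the start listed for the small RNA gene. Where a longer transcript that holds it begins is not given.

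The distance gap had the same direction within each library. In CML-TKI, 12 of 81 noncoding genes had a peak within 1 kb (14.8%, 7.9 to 24.4), against 32.8% of 600 other genes (29.1 to 36.8). In CML, it was 10 of 63 (15.9%, 7.88 to 27.3) against 25.8% of 430 (21.7 to 30.2), and in WT 2 of 29 (6.9%, 0.846 to 22.8) against 27.0% of 233 (21.4 to 33.2). At 1 kb the intervals are apart in CML-TKI and overlap in CML and WT. Beyond 100 kb the shares were 23.5% against 13.3% in CML-TKI, 25.4% against 15.6% in CML and 20.7% against 17.2% in WT. Those intervals overlap in all 3 libraries. Each gene counts through its nearest peak, and in CML-TKI the 600 other genes had 1632 peaks against 125 for the 81 noncoding genes. How far the number of peaks shaped the gap was not tested. The median distance of the nearest peak was 18809 bp for noncoding genes in CML-TKI, against 8910 bp for other genes. In CML the medians were 29651 and 12702 bp, and in WT 48750 and 13069 bp, for noncoding and other genes in that order.

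**Figure D3:**
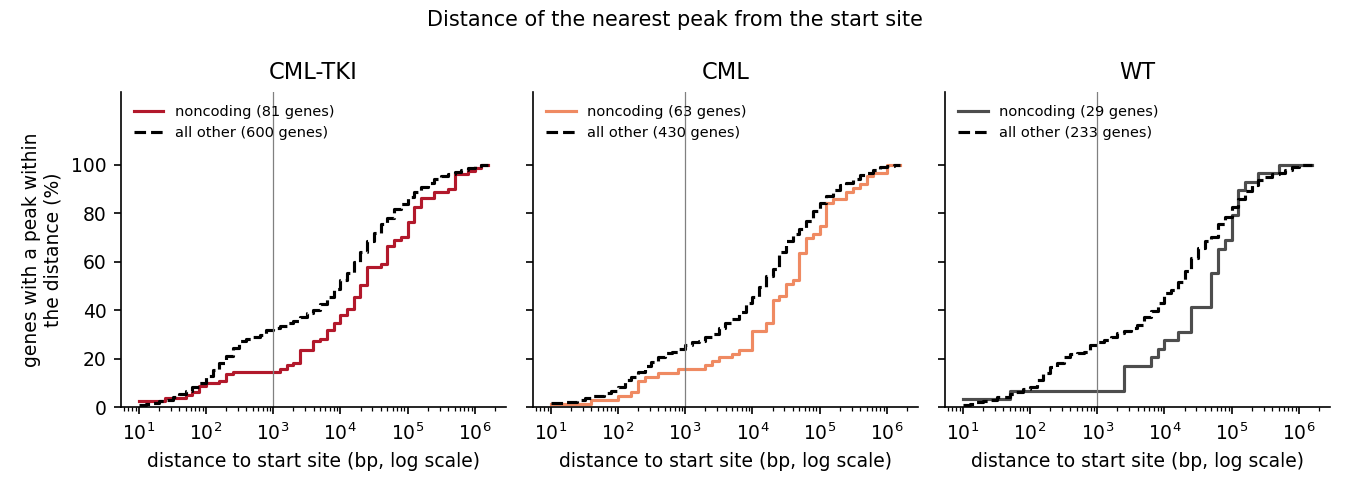
Cumulative share of genes (%, y axis) whose nearest peak lies within a given distance of the start site (bp, log scale, x axis), for noncoding genes (solid) and all other genes (dashed) in CML-TKI, CML and WT. A grey line marks 1 kb, where the solid lines stand at 14.8%, 15.9% and 6.9% and the dashed lines at 32.8%, 25.8% and 27.0%.

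The nuclear long noncoding RNA Malat1 was the noncoding gene with a start-site peak in every library. A 356 bp peak at chr19:5802499-5802855 (mm9), centred 6 bp upstream of the TSS, was listed with the same ends in CML-TKI, CML and WT. CML-TKI listed a second peak of 1024 bp over the same place, chr19:5801972-5802996, the widest of all noncoding peaks, and another of 204 bp near the 3′ end of the gene, 7684 bp downstream of the TSS. Thus 1 identical interval at the start of Malat1 was listed for all 3 libraries, and the wide peak and the 3′ peak were listed in CML-TKI alone. Because the study merged peaks of the 3 samples to find overlaps, the shared interval cannot be read as an independent detection in each.

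Neat1, the architectural RNA of paraspeckles and the neighbour of Malat1 on chromosome 19, had a start-site peak in both leukemic libraries and no entry in WT. The peak at chr19:5845537-5845698, 139 bp upstream of the TSS, had the same ends in CML-TKI and CML, and CML-TKI listed a wider form of it at 263 bp, centred 100 bp upstream. Mirt1 (listed as 5830416P10Rik), a long noncoding RNA named for its rise after myocardial infarction in mice, was shared by CML-TKI with WT instead. Its 146 bp peak at chr19:53539253-53539399, 40 bp upstream of the TSS, had the same ends in CML-TKI and WT and no entry in CML.

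The other start-site peaks of long noncoding genes were each listed in 1 library. In CML-TKI they were those of Gm16675 at 5 bp, 4831440E17Rik at 59 bp, 1600020E01Rik at -78 bp, Gm6297 at 185 bp and 5031434O11Rik at 193 bp, where a minus sign means upstream. In CML they were those of 5430405H02Rik at 34 bp, Gm16740 at 166 bp, 1700028E10Rik at 236 bp, Rprl3 at 383 bp and 1190002F15Rik at -763 bp. Rprl3 resembles the RNA of RNase P, the enzyme that trims transfer RNA precursors, and 1190002F15Rik is now called Lockd, a transcript downstream of the cell cycle inhibitor gene Cdkn1b. WT listed no start-site peak of a noncoding gene other than those of Malat1 and Mirt1.

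Many of these start sites were shared with a protein-coding gene. Of the 20 genes with a peak within 1 kb, 9 (45.0%, 23.1 to 68.5) had the start of a protein-coding gene on the opposite strand within 1 kb of their own in the GRCm38 annotation, against 8 of the other 100 noncoding genes (8.0%, 3.52 to 15.2). In CML-TKI the partners were Irf2 (of Gm16675), an interferon regulatory factor, Kmt2c (of 4831440E17Rik), a histone H3 lysine 4 methyltransferase, the lysine methyltransferase gene Setd7 (of 5031434O11Rik), Dnaja1 (of Gm6297), an Hsp70 co-chaperone, and Bcl7c (of Mir762), a subunit of chromatin remodelling complexes. In CML they were Rab5if (of 5430405H02Rik), Gabpb2 (of Gm16740), Zbtb37 (of Gas5) and Topors (of Toporsos), a ubiquitin and SUMO ligase. The peaks of such pairs lie near both start sites, and which of the 2 genes a peak belongs to cannot be told apart from the table.

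Promoters were read from the RefSeq table, which gives 250 bases before to 50 after the start. Of the 20 genes with a peak within 1 kb, 12 had a promoter there, 15 promoters in all, and 5 of the 12 had a peak centre in the window by the distance in the peak table. The 3 shown are from these 5 genes, GRCm38.p6, 5′ to 3′ on the strand of the gene, and stand for a start site listed in all 3 libraries (Malat1, chr19:5802623-5802922, minus strand), in CML-TKI and WT (Mirt1, chr19:53464747-53465046, minus strand) and in CML-TKI only (Gm16675, chr8:46739466-46739765, minus strand). Capitals mark TTCNNNGAA, the palindrome that STAT dimers bind.
Malat1: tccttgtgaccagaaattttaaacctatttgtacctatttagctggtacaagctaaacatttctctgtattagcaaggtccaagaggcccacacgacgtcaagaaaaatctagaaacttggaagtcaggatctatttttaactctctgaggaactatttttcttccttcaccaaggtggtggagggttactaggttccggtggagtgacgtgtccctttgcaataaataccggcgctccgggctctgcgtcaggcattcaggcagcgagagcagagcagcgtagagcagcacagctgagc
Mirt1: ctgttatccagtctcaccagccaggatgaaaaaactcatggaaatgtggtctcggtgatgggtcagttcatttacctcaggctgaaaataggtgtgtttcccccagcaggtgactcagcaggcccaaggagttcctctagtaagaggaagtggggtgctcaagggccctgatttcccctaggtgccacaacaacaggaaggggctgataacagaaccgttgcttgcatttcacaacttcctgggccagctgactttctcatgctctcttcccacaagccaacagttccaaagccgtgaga
Gm16675: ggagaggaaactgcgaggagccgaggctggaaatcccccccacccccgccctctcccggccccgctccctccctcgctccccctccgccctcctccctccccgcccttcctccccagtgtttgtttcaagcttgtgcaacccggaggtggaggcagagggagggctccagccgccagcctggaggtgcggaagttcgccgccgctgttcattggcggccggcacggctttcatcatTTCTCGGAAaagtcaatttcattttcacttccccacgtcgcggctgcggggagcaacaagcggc
Of the 12 genes, 1 held TTCNNNGAA in a promoter, Gm16675, with the first base of the motif at -14 from the start. The motif reads the same on both strands, and it occurred in a promoter of 2582 of the 27025 genes of the RefSeq table (9.55%), or in 8.3% of its 32851 promoters of the same length, while the stricter form TTCCNGGAA occurred in 1.15% of them and in none of the 3 shown.

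Among the microRNAs, those closest to a peak were in the CML-TKI library. Of the 10 microRNAs named only in CML-TKI, 6 had a peak within 10 kb, and their distances ran between 239 and 873816 bp with a median of 5603 bp. Of the 9 named only in CML, 0 had a peak within 10 kb, and their distances ran between 12879 and 270120 bp with a median of 45478 bp. The 6 of 10 are 60.0% (26.2 to 87.8), against 54.3% of all genes named only in CML-TKI, and the 0 of 9 allow up to 33.6%, against 50% of all genes named only in CML. The libraries were not tested against each other, as each is 1 sample.

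**Figure D4:**
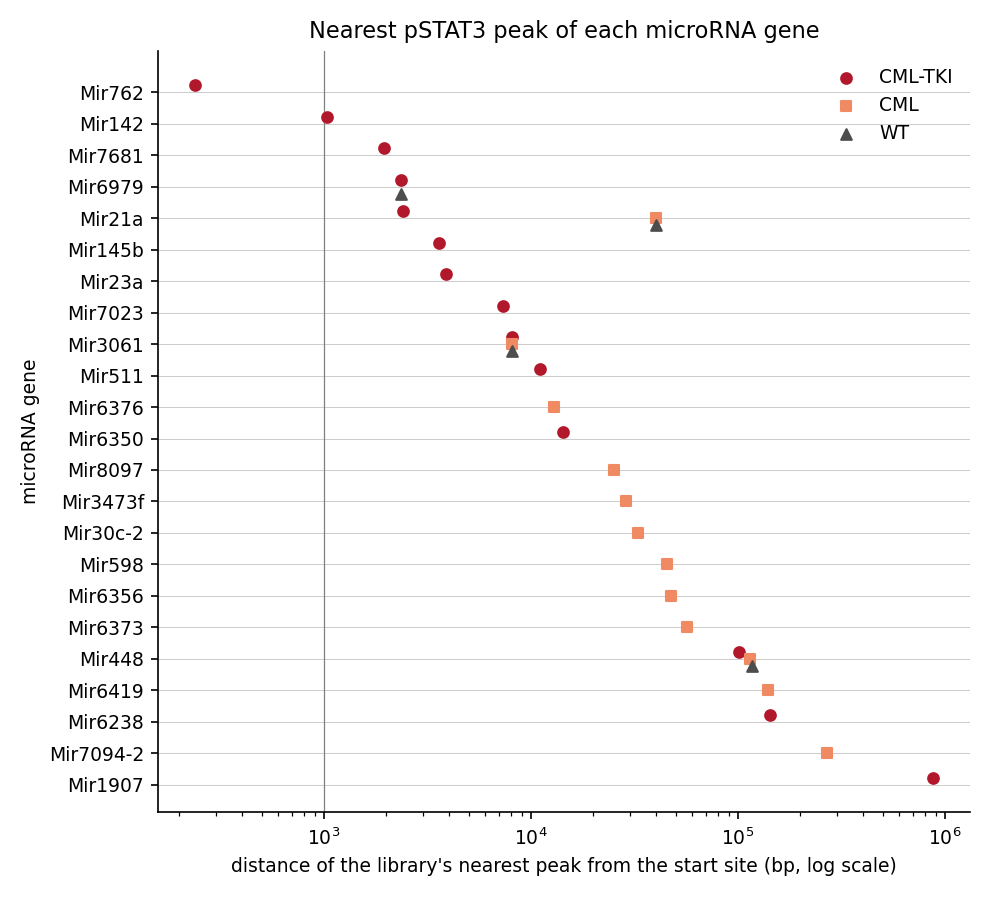
Distance of the nearest peak from the start site (bp, log scale, x axis) for each of the 23 microRNA genes (y axis), with circles for CML-TKI, squares for CML and triangles for WT. The 8 genes nearest to a peak, between Mir762 at 239 bp and Mir7023 at 7335 bp, all have a CML-TKI circle, and squares of genes named only in CML start at 12879 bp.

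Mir762 was the microRNA with a peak within 1 kb of its listed start. It lies antisense to Bcl7c, and 2 overlapping CML-TKI peaks of 147 and 189 bp were centred 239 and 262 bp upstream, the narrower at chr7:134851689-134851836. Mir142, whose microRNA is expressed across blood cell lineages, had 2 overlapping CML-TKI peaks of 299 and 238 bp, centred 1033 and 1040 bp upstream, the wider at chr11:87569184-87569483. Mir23a, the first microRNA of a cluster with Mir27a and Mir24-2 that acts in myeloid and lymphoid development, had a CML-TKI peak of 158 bp at chr8:86728467-86728625, 3871 bp upstream and inside a B3A short interspersed repeat. None of these 3 genes had an entry in CML or WT.

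Mir21a, a microRNA raised in many tumours, was named in all 3 libraries through a distant peak and in CML-TKI also through a near one. The shared peak, 142 bp at chr11:86437927-86438069, lay 40338 bp upstream of the microRNA in intron 7 of 11 of Vmp1, the autophagy gene that overlaps it, and had the same ends in CML-TKI, CML and WT. The near peak, 425 bp at chr11:86399864-86400289, lay 2416 bp upstream in exon 11 of 12 of Vmp1 and was listed in CML-TKI only.

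The other microRNAs named in several libraries had peaks away from the gene. Mir3061 had a peak 8090 bp downstream inside a B1_Mur4 repeat in all 3 libraries, 158 bp wide in CML-TKI and in CML and 182 bp wide in WT. Mir6979, inside the actin regulator gene Diaph1, had peaks at 2348 and -25660 bp, both with the same ends in CML-TKI and WT. Mir448, an intronic microRNA of the serotonin receptor gene Htr2c, had the most intervals of all the noncoding genes. There were 11 once those with the same ends were joined over libraries, of which CML-TKI listed 10 and WT listed 1 of its own. For 1 of the 10, CML-TKI listed rounded ends and was given those of the CML peak at the same distance. That match in ends was therefore assigned and not observed. All 11 intervals lay between 101592 and 116365 bp downstream, and the CML and WT peaks did not overlap each other.

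Of the 23 microRNAs, 9 lay inside a protein-coding gene on its strand, 4 inside one on the opposite strand and 10 in neither. Mir511 (named in CML-TKI, -11082 bp) sits in Mrc1, the mannose receptor gene of macrophages, and its peak was in intron 4 of 29 of that gene. Mir7023 (CML-TKI, 7335 bp) sits in Pik3cd, the gene of the leukocyte PI3-kinase catalytic subunit delta, and its peak was at the 3′ end of Pik3cd. Mir3473f (CML, 28818 bp) is placed by the annotation in Bcl2, the apoptosis inhibitor gene, and Mir598 (CML, -45478 bp) in Xkr6.

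The remaining microRNAs were each named once. In CML-TKI these were Mir7681 at 1945 bp, Mir145b at -3593 bp, Mir6350 at 14214 bp, Mir6238 at -143022 bp and Mir1907 at 873816 bp. In CML these were Mir6376 at -12879 bp, Mir8097 at 25289 bp, Mir30c-2 at 32799 bp, Mir6356 at -47205 bp, Mir6373 at -56443 bp, Mir6419 at -139768 bp and Mir7094-2 at -270120 bp. Mir30c-2 belongs to the miR-30 family, and Mir7094-2 lies in the immunoglobulin heavy chain locus. Peaks at such distances were assigned by proximity alone.

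The snoRNA genes were named in CML-TKI and the genes listed as snoRNA hosts in CML, with 2 genes each, and the name depends on which start site lay nearest. Snora24, which guides pseudouridylation of ribosomal RNA and lies inside the host gene Snhg8 on the same strand, had a CML-TKI peak of 235 bp at chr3:123210932-123211167, 65 bp upstream. Snord73a, which guides ribose methylation and lies in the ribosomal protein gene Rps3a1, had a CML-TKI peak at 21768 bp, in intron 10 of 14 of Sh3d19. Gas5, the host of several snoRNAs and a transcript that accumulates in growth-arrested cells, had a CML peak of 218 bp at chr1:162965371-162965589, 183 bp downstream of the TSS in exon 1 of 4. Snhg20 (listed as 2810008D09Rik) had a CML peak 8151 bp upstream, in a B3 repeat. None of the 4 was named in WT. Toporsos, transcribed opposite Topors, had a CML peak of 170 bp centred 100 bp downstream of its TSS. Of the noncoding transcripts of protein-coding genes, D930016D06Rik was named in all 3 libraries through peaks about the same MurSatRep1 repeat, 56917 bp downstream in CML-TKI and CML and 57042 bp downstream in WT, and C130030K03Rik was named in CML through a peak 880168 bp downstream.

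Lists of well-studied noncoding genes were looked up whole. From a list of 48 names for microRNAs with roles in blood cells, CML-TKI named 3 (Mir142, Mir21a and Mir23a), and CML and WT named 1 each (Mir21a). The list also holds host genes of microRNAs and older names beside newer ones of the same gene. Its names are therefore not all separate microRNA genes. Of the 48 names, 46 are in the RefSeq table, and the 3 make up 6.52% of those names (1.37 to 17.9). Counted by gene, 23 of all 1228 microRNA genes of that table (1.87%, 1.19 to 2.8) were named in any library. The intervals overlap. Of 18 snoRNA host genes, CML-TKI named 0, CML named 2 and WT named 0. These 2 genes are too few to set apart from the whole table, where 28.8% of genes were named only in CML. Snhg8, also on this list, holds Snora24, which was named in CML-TKI. Of 31 long noncoding RNAs (29 in the RefSeq table) of nuclear bodies, imprinting, X inactivation and growth control, CML-TKI named 3 (Malat1, Neat1 and Peg13), CML named 2 (Malat1 and Neat1) and WT named 1 (Malat1). Among all 958 genes of the peak table, CML-TKI named 71.1%, CML 51.5% and WT 27.3%, and 3 genes are too few to set apart from those shares. The Peg13 peak lay 118544 bp upstream of this imprinted transcript. Mir223, the myeloid microRNA, was not itself named, but F630028O10Rik, a long noncoding gene that spans it on the same strand, had a peak 21748 bp upstream with the same ends in CML-TKI and WT.

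Long noncoding genes with distant peaks in more than 1 library were otherwise little-studied transcripts. In CML-TKI and CML, the nearest after Neat1 were 1700095A21Rik at 8746 bp, A630089N07Rik at 16474 bp and 1700108F19Rik at 16594 bp. Distances here are those of the gene's nearest peak in any of its libraries. For 1700108F19Rik that was the CML peak, and its CML-TKI peak lay at -53616 bp. In CML-TKI and WT, the nearest after Mirt1 were 2310005A03Rik at -7345 bp and 1700112H15Rik at 21097 bp, and Nron, an RNA that restrains nuclear entry of the factor NFAT, had a peak at -49992 bp in an intron of Mvb12b. In all 3 libraries, the nearest after Malat1 were 4933422A05Rik at 24292 bp, 1600025M17Rik at -48436 bp (-50620 bp in WT) and 4933407K13Rik at 52084 bp. The last was the CML peak, and 4933407K13Rik had peaks at 88641 bp in CML-TKI and 53405 bp in WT, none of them overlapping. The second-widest noncoding peak, of 709 bp, belonged to 2810429I04Rik in CML-TKI, and lay over a 316 bp peak with the same ends in CML and WT, 105075 bp upstream of the gene.

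WT named 8 of the 17 pseudogenes (47.1%, 23.0 to 72.2), 4 of the 23 microRNAs (17.4%, 4.95 to 38.8) and 16 of the 73 long noncoding genes (21.9%, 13.1 to 33.1), beside 27.3% of all genes. The 3 intervals overlap. Pisd-ps2, a copy of the phosphatidylserine decarboxylase gene, was named in all 3 libraries with 7 intervals, all of them listed in CML-TKI and 1 each also in CML and in WT, and its nearest peak lay at -153 bp in CML-TKI, at 2213 bp in CML and at 2327 bp in WT. Gm21276, Gm8579 and Gm6194 were also named in all 3, at 15136, -87021 and 216687 bp. The peaks of Gm8579 were annotated as the ribosomal RNA repeat SSU-rRNA_Hsa. In CML-TKI and WT the pseudogenes were 2210409E12Rik, Gm6300, Gm16386 and Gm8096, and in CML-TKI and CML they were 6820431F20Rik, Gm11346 and 4930515G16Rik.

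Single-library pseudogenes were Gm5523, Smarca5-ps and Hmgb1-rs17 in CML-TKI, at -2405, -24185 and -40690 bp, and Oaz1-ps, Gm10416 and AA543401 in CML, at 173, -49006 and -68423 bp. The Oaz1-ps peak was placed on chromosome 10, whereas RefSeq has the pseudogene on chromosome 17. The CML-TKI peak of 6820431F20Rik, 552 bp wide, lay 22 bp from the start site, and its CML peak, 353 bp wide, lay 29651 bp upstream at another place. Pseudogenes share sequence with their parent genes, and how reads that fit several copies were treated in peak calling is not given in the sources used here, where unique mapping is stated only for the fold over input.

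Most peaks of noncoding genes lay between genes. The region class was intergenic for 60.0% of 125 distinct noncoding peaks in CML-TKI, 55.2% of 67 in CML and 65.6% of 32 in WT. Peaks classed as promoter made up 11.2%, 7.46% and 6.25% in the same order, and intronic ones 24.0%, 26.9% and 28.1%. Region classes were not counted for peaks of other genes, so these shares cannot be called particular to noncoding genes. The peaks were narrow, with a median width of 192.5 bp for CML-TKI, 170.0 bp for CML and 201.0 bp for WT, against 220.0, 188.0 and 358.5 bp for peaks of other genes. The other peaks here include those of chromosome Y and of the genes with most entries. Peaks of 500 bp or more numbered 6, 0 and 2.

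Some of the peaks lay in repeats that recur over many loci. One was the retroviral repeat RMER16-int. In CML-TKI 11 of 125 noncoding peaks carried it (8.8%, 4.48 to 15.2), against 3.86% of 1632 other peaks (2.98 to 4.91). In CML it was 4.48% of 67 (0.933 to 12.5) against 1.7% of 648 (0.85 to 3.02), and in WT 3.12% of 32 (0.0791 to 16.2) against 2.52% of 714 (1.5 to 3.96). The intervals overlap in each library. The genes were 1700016G22Rik, 2810429I04Rik, 4930433B08Rik, 4930518P08Rik, 4930529L06Rik, 8430436N08Rik, A530072M11Rik and LOC102634431, all of them long noncoding and all named in CML-TKI. Being listed in CML-TKI was not particular to them, as 39 of the 40 other genes with this repeat had it there too. Counted by gene in CML-TKI, it was 8 of 81 noncoding genes against 39 of 600 others. The 11 peaks include overlapping ones of the same gene. Another was MurSatRep1, at 5.97% of the noncoding peaks of CML (1.65 to 14.6), against 0.463% of other peaks (0.0956 to 1.35), and here the intervals are apart. These were 4 peaks of 3 genes, with 2 of the peaks in the same intron of A630089N07Rik. Counted by gene, it was 3 of 63 noncoding genes against 2 of 430 others. The share of peaks in CML-TKI was 4.0% (1.31 to 9.09) against 1.16% (0.702 to 1.81), and in WT 3.12% (0.0791 to 16.2) against 0.98% (0.395 to 2.01), with overlapping intervals. The genes with MurSatRep1 were A630089N07Rik, D930016D06Rik, Gm10416 and Gm1976. Ribosomal RNA repeats made up 12.5% of the noncoding peaks of WT (3.51 to 29.0), against 1.82% of other peaks (0.973 to 3.09), also apart, but these were 4 peaks, 3 of them overlapping ones of Gm8579. Ribosomal repeats made up 3.2% of the noncoding peaks against 1.59% of the others for CML-TKI, and 4.48% against 1.85% for CML. Peaks outside any annotated repeat made up 60.0% of the noncoding peaks of CML-TKI, against 50.9% of the others, 53.7% against 56.9% for CML and 53.1% against 47.3% for WT. In all these repeat shares, the other peaks include those of chromosome Y and of the genes with most entries.

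Within the table, noncoding peaks of CML-TKI and CML overlapped another library less often than all other peaks. The gap was smaller, with overlapping intervals, once chromosome Y and the 10 genes with most entries were left out. A distinct noncoding peak of CML-TKI overlapped a peak of CML or WT by at least 1 bp in 45.6% of 125 cases (36.7 to 54.7), against 64.3% of 1632 other peaks (61.9 to 66.6). In CML, 34.3% of 67 (23.2 to 46.9) overlapped a peak of CML-TKI or WT, against 61.0% of 648 (57.1 to 64.7). In WT, 90.6% of 32 did (75.0 to 98.0), against 99.0% of 714 (98.0 to 99.6), and all 29 of the noncoding ones overlapped CML-TKI. Peaks that took their ends from another library overlap it by construction and are kept in these shares. Among peaks with listed ends, 53 of 122 noncoding and 944 of 1539 other peaks overlapped in CML-TKI. The counts were 23 of 67 and 377 of 635 in CML, and 27 of 31 and 650 of 657 in WT. With chromosome Y and the 10 genes with most entries left out, none of them noncoding members, the other peaks overlapped at 53.0% (49.9 to 56.1) in CML-TKI, 45.9% (41.4 to 50.6) in CML and 97.8% (95.5 to 99.1) in WT, and each interval overlaps that of the noncoding peaks.

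**Figure D5:**
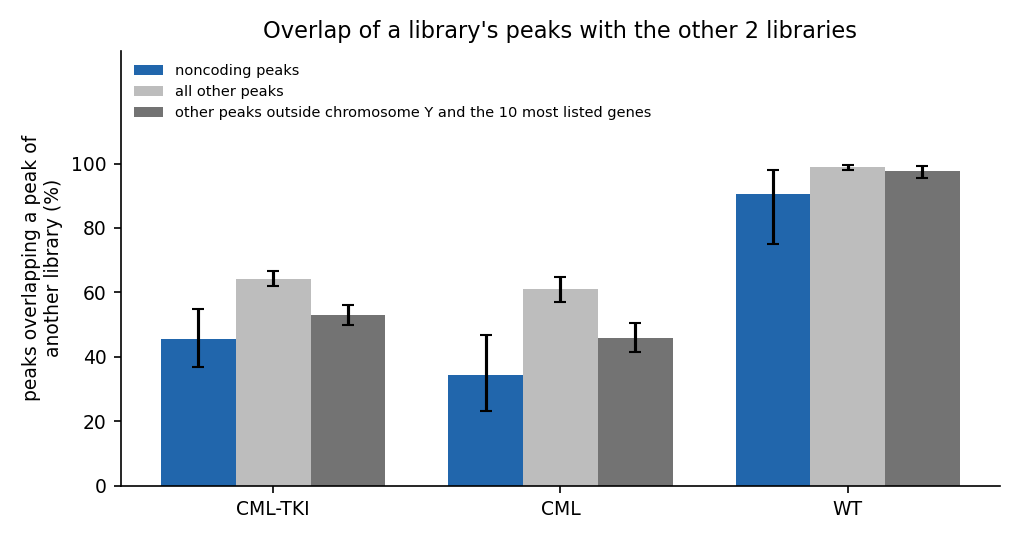
Share of distinct peaks (%, y axis) that overlap a peak of another library, in CML-TKI, CML and WT (x axis), for noncoding peaks (blue), all other peaks (light grey) and other peaks outside chromosome Y and the 10 most listed genes (dark grey), with exact 95% intervals. Noncoding peaks stand at 45.6%, 34.3% and 90.6%, below all other peaks at 64.3%, 61.0% and 99.0%, and overlap the intervals of the dark bars.

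Sharing was often exact. Of the noncoding peaks with listed ends that overlapped another library, 29 of 53 in CML-TKI, 15 of 23 in CML and 22 of 27 in WT had the same start and end there. These were 54.7% (40.4 to 68.4), 65.2% (42.7 to 83.6) and 81.5% (61.9 to 93.7), against 53.0% (49.7 to 56.2), 83.8% (79.7 to 87.4) and 39.8% (36.1 to 43.7) of other overlapping peaks. The intervals are apart in WT. Of the 714 other peaks of WT, 315 lay outside chromosome Y and the 10 genes with most entries. Exact ends were not compared against those alone. By the study's methods, peaks of the 3 samples were merged with HOMER to find those that overlap, so a shared peak in this table cannot be read as an independent detection. Of the 39 genes named in more than 1 library, 32 had an overlapping peak in each pair of their libraries. The other 7 were named through different sites in at least 1 pair, and 5 of these (1700108F19Rik, 2210409E12Rik, 4930515G16Rik, 4933407K13Rik and 6820431F20Rik) shared no peak at all. The same ends in all 3 libraries occurred at 4 peaks, 1 each of Malat1, Mir21a, Gm21276 and Gm6194.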

How the data were processed

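ChIP-seq peaks of pSTAT3-Y705 in LSK cells were deposited as 1 table over CML-TKI, CML and WT, with 1 library each. By the study's methods, the authors removed duplicates and adapters, aligned reads with bwa mem, called peaks with MACS2, HOMER, Genrich and SICER2, merged peaks within 100 bp, annotated them with HOMER and merged the peaks of the 3 samples with HOMER to find overlaps. Partek 8.0 is listed among the tools of the submitters' processing notes. The deposited values are positions and signed distances to the TSS in bp. The methods name mm10, but peak ends on 6 chromosomes pass the GRCm38 lengths, so peak positions are given as mm9 and are not compared with GRCm38 positions, which are used only for RefSeq annotation and sequences.

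The 438 entries of noncoding genes among 6024 were reduced to 224 distinct peaks, each counted once in each library (187 when the same ends are joined over the 3 libraries). A gene with 1 distinct peak had between 1 and 4 entries, so entries were not used as a measure of strength. In 38 entries both ends were rounded to 1 Mb. Such an entry was dropped where its library listed the same distance with full ends and otherwise took those of another library, and the 1 peak left without ends in CML-TKI and 1 in WT were compared by distance with an assumed width of 200 bp. The table has no gene type or description column, so kinds came from gene names and RefSeq types, and host genes from the list of snoRNA hosts. Distances are those of the table. MicroRNAs of chromosome 18 were left out of the seed comparison. Shares have exact Clopper-Pearson 95% intervals, and no test was run between libraries. The counting and overlap steps were tested on simulated peaks. Columns of other samples numbered 0. Named genes are all microRNAs, snoRNAs, host genes and genes with a peak within 1 kb, the 4 nearest of each other kind and library pattern, and the 5 with most or widest peaks; genes named for a repeat, an imprint or a neighbour were added after their values were seen. The members and lists were chosen with earlier results of these data known. Alternatives changed peak width, distance, repeats, gene type, exclusions and the overlap rule.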

Additional observations from a re-analysis of the deposited data

How the results depend on the processing

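The counts of noncoding genes depended on which peaks were kept. With peaks of 500 bp or wider, CML-TKI named 5, CML 0 and WT 2, and genes named in 1 library only fell to 3 in CML-TKI and 0 in CML. With peaks within 5 kb of the TSS the counts were 23, 14 and 5, and with peaks outside repeats 50, 35 and 16, for the libraries in the same order. The noncoding share of named genes within 5 kb was 8.24% for CML-TKI, 8.19% for CML and 5.43% for WT, and 0% in CML and 6.06% in WT at 500 bp or wider. Genes with a promoter peak numbered 23 in CML-TKI and 5 in WT within 5 kb, and 5 in CML by the promoter region class. The other 35 alternative values stayed within 1.5 times the count or within the interval of the share, and they include every overlap rule, the RefSeq gene type, every entry with an NR_ accession and no exclusions. Some of the 35 could not change. Asking for an NR_ accession at every entry kept the same genes, as 0 names had more than 1 accession. Leaving the 10 most listed genes out of the overlap was chosen after seeing the data. It could not change the noncoding shares, as 0 of these genes were noncoding members. No paired analysis was possible because the libraries carry no shared replicates, with 1 in every group, and for the same reason no replicate could be left out. The table has no read counts and holds fewer sites than the study's text counts, so an absence from a library cannot be read as a difference.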
